A study of Ambystoma mexicanum with 3 samples.

Results

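The nuclei described here are 382 spinal cord ependymal-like nuclei of the axolotl embryo tail tip, selected on 4 transcripts. A nucleus belonged to the set when it held at least 3 unique molecular identifiers (UMIs, each tagging 1 captured RNA molecule) from at least 2 of the symbols *RFX4*, *IGDCC3*, *GPR144* and *ADAMTS3*, and when its total passed a UMI cut of 1300 in Rom 6 HPA and 0 HPA or 2000 in Cont 6 HPA. The 382 nuclei were 1.83% of the 20850 nuclei over the cut, which themselves came from 133193 nuclei in 3 libraries. *RFX4* encodes a transcription factor of the neural tube, *IGDCC3* an immunoglobulin superfamily membrane protein, *GPR144* an adhesion G protein-coupled receptor and *ADAMTS3* a secreted protease that processes procollagen.

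The study used single nuclei RNA-Seq to follow the transcription of *Ambystoma mexicanum* embryos after tail amputation with and without romidepsin, an inhibitor of class I histone deacetylases. All 3 libraries came from tail tissue of embryos at developmental stage 42, and the paper names several embryo stocks of the Ambystoma Genetic Stock Center without saying which went into which library. Rom 6 HPA was made from embryos that lost 2 mm of the tail and were then kept in 10 μM romidepsin for 6 h post amputation (HPA). Cont 6 HPA was made from embryos with the same amputation in rearing water without romidepsin. The 0 HPA library was a control made at the time of amputation. Each of the 6 HPA libraries pooled 1 mm of tip from 100 embryos, and the pool behind 0 HPA is not given in the sources used here. The paper gives the nuclei numbers of the treated and the untreated library the other way round. The labels were followed here, and if the matrices were exchanged, every ratio of the treated over the untreated library would change sign. The values given for Cont 6 HPA, with its comparison to 0 HPA, would then belong to the treated library. As labelled, the log2 ratio of Rom 6 HPA over Cont 6 HPA in the nuclei outside the set was −2.58 for *HAS2* and 0.98 for *SMAD7*, both on the study's list of romidepsin responsive genes. With a single library for each condition the spread between replicates cannot be estimated. No difference between conditions was tested, and every interval below is a 95% interval that covers counting error only.

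Ependymal cells line the central canal of the spinal cord. In salamanders they keep features of embryonic radial glia, with processes that reach the cord surface, cilia on the canal side and the ability to divide. After tail amputation these cells extend the cord into the regenerate as a tube, and they give rise to new neurons and glia. Glial intermediate filament GFAP and the glutamate transporter SLC1A3 (GLAST) are classical proteins of radial glia, and Notch signalling keeps such cells undifferentiated in vertebrate embryos.

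Members numbered 99 in Rom 6 HPA (289538 UMIs), 167 in Cont 6 HPA (656686 UMIs) and 116 in the 0 HPA library (378122 UMIs). Members had a median of 2370 UMIs in Rom 6 HPA, 3618 UMIs in Cont 6 HPA and 2548.5 UMIs in 0 HPA, close to the medians of the other nuclei over the cut (2169.5, 3390 and 2190 UMIs). Levels are given as CPM, the UMIs of a symbol as parts per 1e6 of all UMIs of the summed nuclei, so that 1 UMI in the set was worth 3.45 CPM in Rom 6 HPA, 1.52 CPM in Cont 6 HPA and 2.64 CPM in 0 HPA. The libraries shared between 469 and 736 cell barcodes pairwise, 0.924 to 1.67% of either library, and no barcode was a member in more than 1 library.

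The selecting transcripts were sparse, and their values are a description of the choice. In members *ADAMTS3* stood at 528 CPM in Rom 6 HPA, 422 CPM in Cont 6 HPA and 571 CPM in 0 HPA, and it was found in 83, 130 and 99 of the members. *RFX4* stood at 273 CPM in Rom 6 HPA, 119 CPM in Cont 6 HPA and 175 CPM in 0 HPA, and its level in the nuclei outside the set had the same order (11.3, 4.69 and 5.48 CPM). *IGDCC3* and *GPR144* lay between 243 and 314 CPM in all libraries. The median member held 4 selecting UMIs in each library, and the highest count was 9 in Rom 6 HPA, 10 in Cont 6 HPA and 20 in 0 HPA. Most members carried 2 of the 4 symbols (57 of 99, 97 of 167 and 70 of 116), and 4, 12 and 5 carried all 4. Many members lay on the threshold, since 46, 64 and 51 of them held exactly 3 selecting UMIs, whereas 95, 101 and 89 nuclei just outside held 2 UMIs from 2 symbols.

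The name of the set was checked against genes that did not select it. *SLC1A3*, *GFAP*, the neural cadherin gene *CDH2* and motile cilia genes were all higher in members than in the other nuclei, as detailed below, which fits the name. Several defining genes of neural progenitors were absent. *SOX2*, a transcription factor of neural stem cells, had 0 UMIs in members of Rom 6 HPA, 1 in Cont 6 HPA and 0 in 0 HPA, and only 0, 3 and 0 UMIs in the other nuclei over the cut. *SOX3*, *PAX6*, *MSI1* and *POU3F2* had no UMI in any member, nor had the glial genes *AQP4*, *PTPRZ1*, *GPM6B*, *NCAM1* and *PROM1*. *FOXJ1*, the transcription factor that directs motile ciliogenesis, had 2, 1 and 2 UMIs. Of a list of 18 neural progenitor regulators 13 were matched to a feature, and their summed level in members was 117 CPM in Rom 6 HPA, 119 CPM in Cont 6 HPA and 111 CPM in 0 HPA, beside 96.4, 108 and 74.4 CPM in the other nuclei. The label therefore rests on glial genes and not on the progenitor transcription factors. Ciliary genes were not specific to the set. In Rom 6 HPA, Cont 6 HPA and 0 HPA the motile cilia list summed to 629, 687 and 653 CPM in members. In ciliated-like nuclei it summed to 2898, 2875 and 3811 CPM. Genes of that list helped to choose these nuclei, which are compared below. Hox genes place cells along the body axis, and *HOXD11* stood at 642, 702 and 563 CPM in members. In ciliated-like nuclei *HOXD11* stood at 424, 295 and 300 CPM.

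Markers of other cell types were found in members too. Under rules of the same form for 11 other cell classes, 24 members in Rom 6 HPA (24.2%), 67 in Cont 6 HPA (40.1%) and 35 in 0 HPA (30.2%) also met at least 1 other rule, and the shares among the other nuclei were 25.4%, 39.8% and 27.0%. The overlap with the ciliated-like class was the largest, with 12, 47 and 15 members. These were 12.1%, 28.1% and 12.9% of members, against 1.07%, 1.92% and 1.34% of the other nuclei. For this class the overlap was thus well above that of the other nuclei. The neuron-like rule was met by 2.02%, 0.599% and 5.17% of members, against 0.553%, 1.00% and 0.771% of the other nuclei. The 4 muscle markers summed to 1043 CPM in members of Rom 6 HPA, 562 CPM in Cont 6 HPA and 529 CPM in 0 HPA, against 1976, 1886 and 1918 CPM in the other nuclei. The 4 neuron markers summed to 117, 59.4 and 172 CPM in members, against 34.0, 33.6 and 39.8 CPM in the other nuclei, with *GRIN2B* at 0 in all members. The 4 notochord markers, which include the cartilage and notochord collagen *COL2A1*, summed to 1475, 1652 and 1306 CPM in members, against 1891, 2132 and 1941 CPM in the other nuclei. The notochord-like rule was met by 5.05%, 10.8% and 6.03% of members, against 5.18%, 7.76% and 3.32% of the other nuclei, although the notochord marker *NOG* was at 0 in members. The 4 fibroblast markers summed to 242, 204 and 177 CPM in members, against 339, 353 and 366 CPM, with *DCHS1* at 0 in members. The 4 erythrocyte markers summed to 86.3, 18.3 and 31.7 CPM, against 38.9, 45.1 and 26.0 CPM, with *EPB42* at 0 in members, and the 4 myeloid markers to 0, 6.09 and 5.29 CPM, against 8.02, 7.29 and 4.27 CPM, with *CSF1R* and *PTPRC* at 0. The notochord sum was above the level of *SLC1A3* in members of every library, and the muscle sum was above it in Rom 6 HPA. The part of these markers in the results was not tested.

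Set against the other nuclei over the cut, members held higher levels of ciliary and of some glial, neuronal, signalling and Hox transcripts. A list of proneural and neuronal genes summed to log2 ratios of 1.89, 1.08 and 2.21 in Rom 6 HPA, Cont 6 HPA and 0 HPA. The radial glia and ependymal list summed to 0.65, 0.58 and 1.28. In 0 HPA both lists leaned on few nuclei. Of the 1349 UMIs of the radial glia and ependymal list, 2 nuclei gave 255 of *KRT18* and 118 of *KRT8*. In the neuronal list 1 nucleus held 16 of 33 *SCN8A* and 13 of 46 *SNAP25* UMIs. The list ratios without these nuclei were not computed. Of 2127 symbols with at least 50 UMIs in the members together and not used for selection, 92 were more than 2-fold higher in members in all 3 libraries (4.33%). Because the members were selected on counts from the same nuclei, these ratios describe the set and were not tested.

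Among glial genes *SLC1A3* was the most abundant of those past 2-fold. It stood at 618 CPM in members of Rom 6 HPA, 755 CPM in Cont 6 HPA and 894 CPM in 0 HPA, against 105, 109 and 138 CPM in the other nuclei (log2 ratios of 2.56, 2.79 and 2.70). After thinning to 1300 UMIs per nucleus, 57.6% of Rom 6 HPA members, 58.1% of Cont 6 HPA members and 59.5% of 0 HPA members held an *SLC1A3* UMI, with exact binomial bounds between 47.2% and 68.5%. The unthinned shares were 67.7%, 80.2% and 81.9%, at the unequal depths given above. In muscle-like nuclei, which served as a background class not thought to make this transporter, the thinned shares were 10.3%, 10.8% and 11.7%, with median depths of 2663, 3940 and 2763 UMIs before thinning.

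*GFAP* stood at 135 CPM in members of Rom 6 HPA, 123 CPM in Cont 6 HPA and 209 CPM in 0 HPA, against 28.0, 29.0 and 36.7 CPM in the other nuclei. Its thinned shares were 13.1%, 14.4% and 19.0% of members, against 3.60%, 3.59% and 2.82% of muscle-like nuclei. *CDH2*, which encodes the N-cadherin of neuroepithelial junctions, had log2 ratios of 2.00, 1.66 and 2.02. The adhesion gene *CDH6* (3.09, 3.17 and 1.86) and the apical polarity gene *CRB1* (3.01, 3.62 and 2.06) were also higher in members in every library, on 5 to 28 UMIs each. Both belong to a list of matrix, adhesion and polarity genes that summed to 0.10, −0.06 and −0.21 over the other nuclei. Of its 10 genes with at least 50 UMIs, 1 was past 2-fold in all libraries. Of the 17 matched genes of the radial glia and ependymal list, 7 reached 50 UMIs. Of these, 3 (*SLC1A3*, *GFAP* and *CDH2*) were past 2-fold in all libraries, where 4.33% of all symbols were. *VIM*, the intermediate filament vimentin, was less apart (0.57, 0.40 and 0.77), and *GLUL*, the glutamine synthetase of mature astroglia, did not stand apart (0.08, −0.20 and −0.28, each interval holding 0).

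Ciliary genes were higher in members as a group. All 7 of the motile cilia genes with at least 50 UMIs were more than 2-fold higher in members in all 3 libraries, and the 15 matched genes summed to 629 CPM in members of Rom 6 HPA, 687 CPM in Cont 6 HPA and 653 CPM in 0 HPA, against 120, 120 and 123 CPM in the other nuclei. The background share of genes past this fold was 4.33%. *SPEF2*, a protein of the axonemal central pair, stood at 155, 196 and 214 CPM in members, against 28.6, 27.8 and 28.9 CPM. The axonemal dynein heavy chain genes *DNAH5* (log2 ratios of 2.74, 1.78 and 2.37), *DNAH6* (2.37, 2.98 and 2.38) and *DNAH7* (2.70, 2.64 and 2.49) gave similar values. Genes of the ciliary base were chosen after their values were seen, and among them *CEP290*, a gatekeeper protein of the ciliary transition zone, had log2 ratios of 2.08, 2.28 and 1.95, and *DYNC2H1*, the motor of retrograde transport in cilia, had 2.11, 2.51 and 1.77. *KIF27*, a kinesin of motile cilia, stood at 131, 137 and 130 CPM, against 22.8, 21.7 and 22.5 CPM.

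Some signalling genes were also higher in members. *NOTCH1*, the Notch receptor, stood at 65.6 CPM in members of Rom 6 HPA, 38.1 CPM in Cont 6 HPA and 45.0 CPM in 0 HPA, against 11.5, 6.28 and 8.72 CPM in the other nuclei. Its ligand gene *DLL1* had log2 ratios of 1.58, 2.52 and 1.73, and *LFNG*, whose product modifies Notch receptors, had 0.78, 1.48 and 1.35. The Wnt receptor gene *FZD7* had log2 ratios of 3.35, 4.46 and 3.54 on 12, 17 and 15 UMIs. *PTCH1*, the Hedgehog receptor, stood at 51.8, 39.6 and 68.8 CPM, against 20.6, 12.8 and 18.3 CPM. Of the Notch genes with at least 50 UMIs 2 of 5 were past 2-fold in all libraries. Of the Wnt, Fgf, Hedgehog and Bmp receptor and transducer genes 1 of 3 was. Over all symbols the share was 4.33%.

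Among guidance genes, *EPHA4*, an ephrin receptor gene, stood at 159 CPM in members of Rom 6 HPA, 86.8 CPM in Cont 6 HPA and 103 CPM in 0 HPA, against 37.3, 17.3 and 22.8 CPM in the other nuclei. *SLIT1*, which encodes a midline repellent of axons, stood at 31.1, 67.0 and 76.7 CPM, against 11.8, 12.9 and 13.5 CPM. *SEMA3A*, which encodes a secreted axon repellent, was lower in members in every library (−1.55, −0.82 and −1.40). Of the guidance genes 2 of 4 with at least 50 UMIs were past 2-fold in all libraries, where 4.33% of all symbols were.

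Posterior Hox genes place cells along the body axis and are used in the tail. *HOXD11* was among the most abundant transcripts of this kind, at 642 CPM in members of Rom 6 HPA, 702 CPM in Cont 6 HPA and 563 CPM in 0 HPA, against 152, 112 and 136 CPM in the other nuclei. *HOXD10* (log2 ratios of 1.90, 2.49 and 2.13) and *HOXB9* (2.49, 2.41 and 1.65) were also past 2-fold in each library, while *HOXD12* (0.62, 0.92 and 0.95) was not. The most abundant symbol past 2-fold was *HOXB3*, an anterior Hox gene that was on no list and was chosen after its values were seen. *HOXB3* stood at 908 CPM in members of Rom 6 HPA, 909 CPM in Cont 6 HPA and 1240.3 CPM in 0 HPA, against 384, 211 and 361 CPM in the other nuclei. Of 7 Hox genes with at least 50 UMIs, 3 were past 2-fold in all libraries, where 4.33% of all symbols were.

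Cell cycle transcripts were moderately higher in members. The 24 genes of the list summed to log2 ratios of 0.87 (0.78 to 0.95), 0.88 (0.82 to 0.93) and 0.63 (0.56 to 0.71). None of the 14 cell cycle genes with at least 50 UMIs passed 2-fold in all 3 libraries, where 4.33% of all symbols did. For 9 of the 14 the interval of the log2 ratio lay above 0 in each library. The share of all symbols with such intervals was not computed. *CENPF*, a kinetochore protein of dividing cells, stood at 943 CPM in members of Rom 6 HPA, 1004 CPM in Cont 6 HPA and 703 CPM in 0 HPA, against 338, 341 and 387 CPM in the other nuclei. *MKI67*, the proliferation antigen Ki-67, stood at 549, 650 and 767 CPM, against 309, 334 and 399 CPM. Their thinned shares in members were 55.6%, 56.3% and 50% for *CENPF* and 43.4%, 49.7% and 59.5% for *MKI67*, above those of muscle-like nuclei (8.55 to 10.1% and 21.5 to 24.5%). The replication genes *PCNA* (0.39, 0.37 and 0.31) and *MCM4* (0.44, 0.05 and 0.24) stood closer to the other nuclei.

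**Figure D1:**
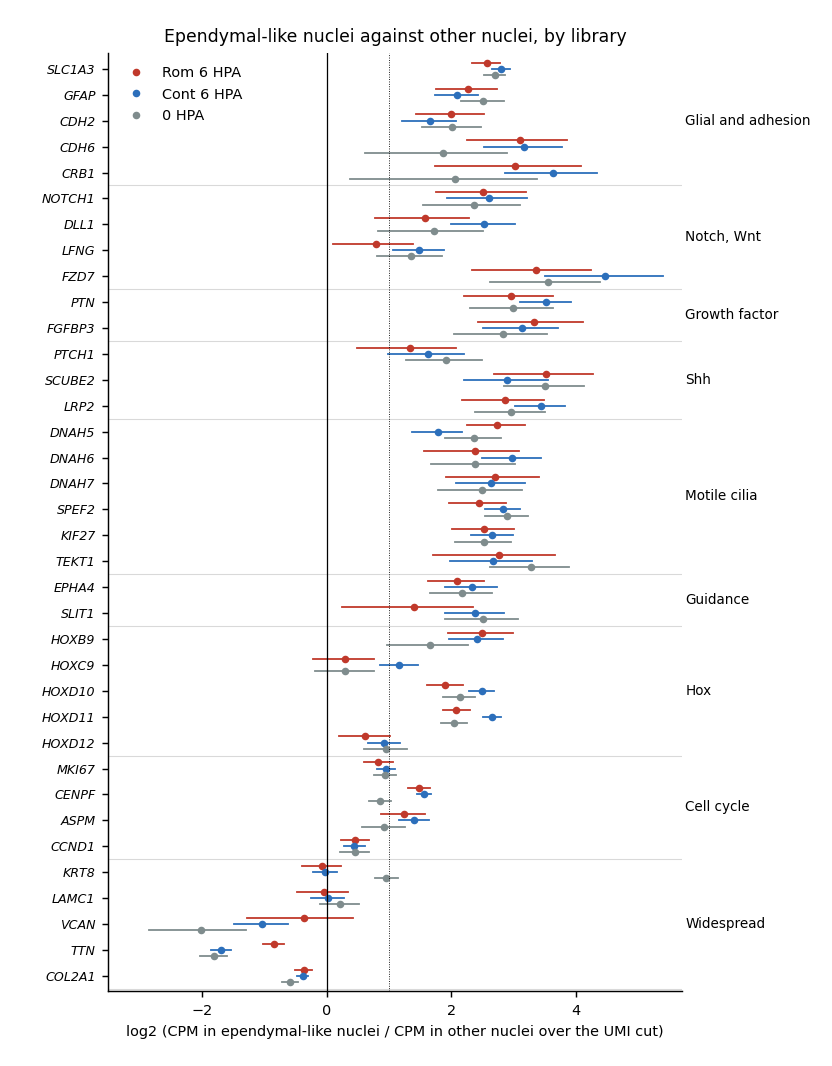
Log2 ratio of CPM in ependymal-like nuclei to CPM in the other nuclei over the UMI cut (x axis) for listed genes grouped by role (y axis), with 1 point per library and lines for the 95% counting interval. *SLC1A3* sits at 2.56, 2.79 and 2.70 and the cilia genes lie to the right of the dotted 2-fold line, while *TTN* lies to the left of 0 (−0.85, −1.69 and −1.81).

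By the fixed rule, the 20 symbols with the highest ratio in the library where it was lowest were named. They were *NDST3*, *MIR-219*, *PKD1*, *ADCY8*, *DCLK3*, *PTN*, *TECTA*, *SCUBE2*, *LRP2*, *FGFBP3*, *C2ORF77*, *TTC40*, *TEKT1*, *EFCC1*, *ARMC4*, *SLC1A3*, *KIF27*, *DNAH7*, *SPEF2* and *RNF220*, and their lowest log2 ratio ran from 3.63 for *NDST3* to 2.43 for *RNF220*. Of these, *TEKT1* (a tektin of the ciliary doublet), *ARMC4* (an anchor of outer dynein arms), *TTC40*, *KIF27*, *DNAH7* and *SPEF2* serve motile cilia. Each of them, and *C2ORF77*, stood higher in ciliated-like nuclei, compared below, than in members in every library. *SPEF2* helped to choose those nuclei. *ADCY8* stood at 24.9, 33.8 and 27.3 CPM in ciliated-like nuclei, beside 27.6, 36.5 and 50.2 CPM in members. In neuron-like nuclei, also compared below, *ADCY8* stood at 69.9, 29.8 and 22.5 CPM. *MIR-219* stood at 15.0, 15.4 and 49.1 CPM in ciliated-like nuclei, beside 48.4, 47.2 and 52.9 CPM in members. *MIR-219* is the name that the feature table gives, and the transcript behind it was not examined.

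Several of the leading symbols encode secreted proteins, receptors or enzymes of heparan sulphate. *NDST3* encodes an enzyme that sulphates heparan sulphate, and it stood at 51.8 CPM in members of Rom 6 HPA, 27.4 CPM in Cont 6 HPA and 58.2 CPM in 0 HPA, against 3.63, 2.22 and 3.52 CPM in the other nuclei. *PTN*, the heparin-binding growth factor pleiotrophin, stood at 69.1, 104 and 63.5 CPM, against 8.93, 9.05 and 7.97 CPM. *FGFBP3*, which encodes a carrier of fibroblast growth factors, stood at 51.8, 47.2 and 50.2 CPM (log2 ratios of 3.32, 3.13 and 2.82). *SCUBE2* promotes the release of Hedgehog ligands, and it stood at 58.7, 36.5 and 71.4 CPM, against 5.13, 4.90 and 6.29 CPM. *LRP2*, the endocytic receptor megalin of neuroepithelium, stood at 79.4, 107 and 87.3 CPM, against 10.9, 9.88 and 11.2 CPM. *PKD1*, the polycystin of primary cilia, stood at 142, 105 and 153 CPM, against 12.3, 11.3 and 13.8 CPM. For each of these genes the interval of the ratio lay above 0 in every library, which follows largely from their choice by that ratio. Part of the difference was shared with ciliated-like nuclei, where *PKD1* stood at 110, 76.8 and 87.2 CPM and *SCUBE2* at 24.9, 21.5 and 21.8 CPM. *FGFBP3* was less shared, at 4.99, 18.4 and 10.9 CPM in ciliated-like nuclei.

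The levels also changed with the number of selecting UMIs, outside the set as well as within it. *SLC1A3* in nuclei with 0 selecting UMIs stood at 88.9 CPM in Rom 6 HPA, 87.2 CPM in Cont 6 HPA and 110 CPM in 0 HPA, and in nuclei with 1 selecting UMI at 179, 172 and 265 CPM. Nuclei with 2 or more UMIs that missed the rule stood at 359, 478 and 598 CPM, and members with exactly 3 UMIs at 480, 645 and 661 CPM. The levels were graded across the threshold. In *SLC1A3*, *HOXD11* and ciliary transcripts, nuclei just outside it stood between nuclei with 1 selecting UMI and members with 3 UMIs. In Cont 6 HPA their intervals lay below those of members with 3 UMIs for each of these. The same held in 0 HPA for ciliary transcripts only, and in Rom 6 HPA the intervals overlapped. *TTN*, the muscle titin, was lower in members with 3 UMIs, at 860, 671 and 564 CPM, than in nuclei with 0 selecting UMIs, at 1830, 1759 and 1761 CPM. Within the set *TTN* had no common order, with 459 CPM in Rom 6 HPA and 652 CPM in 0 HPA in members with 4 UMIs, and 1543 and 193 CPM in those with 5 or more. In Cont 6 HPA members with 5 or more stood at 474 CPM, within the interval of members with 4 UMIs (302 to 499 CPM). In Rom 6 HPA 2 nuclei held 57 and 38 of the 146 *TTN* UMIs of members with 5 or more.

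**Figure D2:**
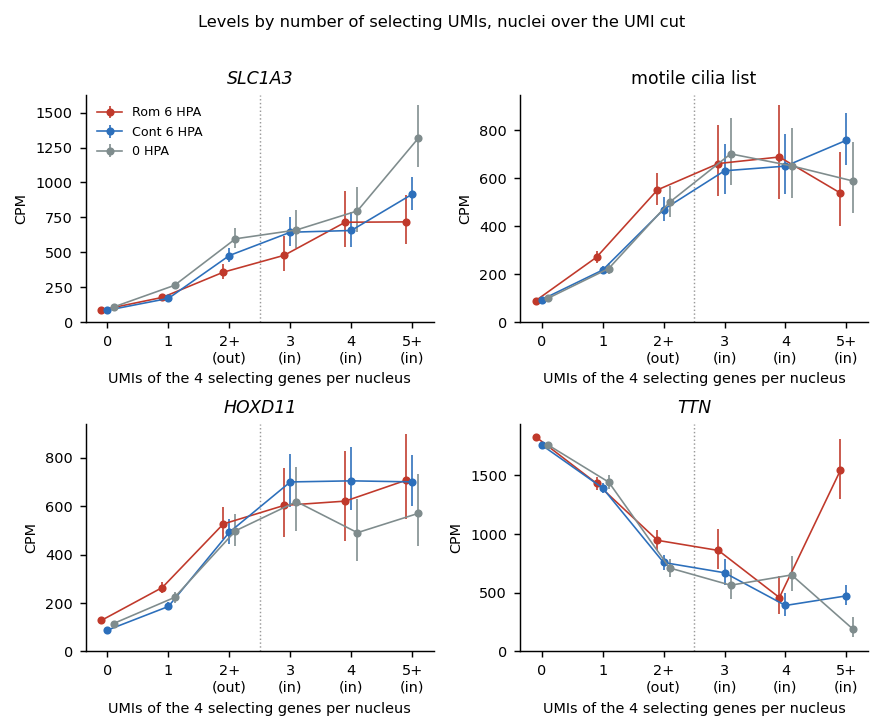
Level in CPM (y axis, linear) of *SLC1A3*, the summed motile cilia list, *HOXD11* and *TTN* in nuclei binned by their UMIs of the 4 selecting genes (x axis), per library, with 95% Poisson intervals. Bins left of the dotted line lie outside the set, and *SLC1A3* already reached 359, 478 and 598 CPM in the bin with 2 or more UMIs that missed the rule.

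*SLC1A3* was found in 67 of 99 members in Rom 6 HPA, 134 of 167 in Cont 6 HPA and 95 of 116 in 0 HPA, and UMIs of the cilia list in 71, 130 and 92. Both were found in 47, 111 and 77 members, where the product of the shares gives 48.1, 104 and 75.3, and neither in 8, 14 and 6. *GFAP* was found beside *SLC1A3* in 24, 50 and 39 members, where the product gives 19.6, 48.9 and 36.0. The joint counts thus stood near those products, so they show no more than that each transcript was common in the set.

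The set was also compared with ciliated-like and neuron-like nuclei. Ciliated-like nuclei (62, 78 and 72 nuclei) were chosen on *DNAH9*, *DNAH6*, *AK9* and *SPEF2*, so that ratios of these genes follow from their choice, and neuron-like nuclei (32, 49 and 45) on *SCN8A*, *GRIN2B*, *UNC13C* and *KCNC1*. *SLC1A3* was higher in ependymal-like than in ciliated-like nuclei in each library (log2 ratios of 1.28, 0.78 and 0.83), and so were *GFAP* (1.05, 1.01 and 1.01) and *HOXD11* (0.60, 1.25 and 0.91), with every interval above 0. Other genes of the set did not separate it in every library. *NOTCH1* had log2 ratios of 2.72, 1.31 and 1.46 over ciliated-like nuclei, with intervals that held 0 in Cont 6 HPA and 0 HPA. Over neuron-like nuclei its intervals held 0 in Rom 6 HPA and Cont 6 HPA. In 0 HPA only, the intervals of *EPHA4* (0.78) and *PTN* (0.96) over ciliated-like nuclei held 0. By contrast, *FGFBP3* lay above ciliated-like nuclei (3.38, 1.36 and 2.20), with every interval above 0. *CDH2* had log2 ratios of 1.25, 0.93 and 0.35 (−0.51 to 1.28 in 0 HPA) over ciliated-like nuclei and of 1.10, −0.06 and 0.19 over neuron-like nuclei, where each interval held 0, and the leading gene *LRP2* had 0.29, 0.80 and 0.00 over ciliated-like nuclei, with intervals that held 0 in Rom 6 HPA and 0 HPA. *KIF27*, a ciliary gene that chose neither class, was lower in ependymal-like nuclei (−1.28 in Rom 6 HPA, with intervals of −1.44 to −0.56 in Cont 6 HPA and −1.82 to −0.66 in 0 HPA), and *TEKT1* was too (−1.39, −1.01 and −0.99). *CENPF* was higher in ependymal-like nuclei (1.30, 1.67 and 0.49). Against neuron-like nuclei, *SLC1A3* was higher by log2 ratios of 3.37, 3.34 and 3.44, and the neurofilament gene *NEFL* was lower by −2.64, −3.35 and −2.20. *NEFL* nevertheless stood at 276 CPM in members of Rom 6 HPA, 104 CPM in Cont 6 HPA and 233 CPM in 0 HPA. Its thinned shares of 18.2%, 12.0% and 16.4% lay above the 4.30%, 4.14% and 3.75% of muscle-like nuclei.

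The share of nuclei in the set differed between libraries. It was 1.32% (1.07 to 1.60%) of nuclei over the cut in Rom 6 HPA, 2.63% (2.25 to 3.05%) in Cont 6 HPA and 1.66% (1.37 to 1.99%) in 0 HPA. Cont 6 HPA was also the deepest library and had the higher UMI cut. When the nuclei over the cut were thinned to 1300 UMIs each before the rule was applied, the shares became 0.453% in Rom 6 HPA, 0.425% in Cont 6 HPA and 0.558% in 0 HPA, on 34, 27 and 39 nuclei. The place of Cont 6 HPA as highest was lost at equal depth, and a difference in the share of ependymal-like nuclei was not detectable at this depth. With a cut of 2000 UMIs in every library the shares were 1.49%, 2.63% and 1.96%.

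**Figure D3:**
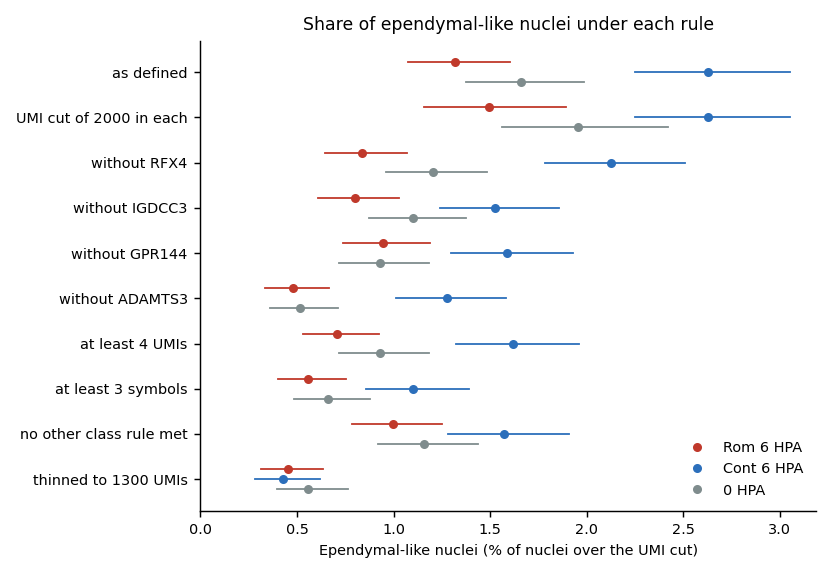
Ependymal-like nuclei as percent of nuclei over the UMI cut (x axis) under the rule as defined and under 9 alternative rules (y axis), per library, with exact 95% binomial intervals. Cont 6 HPA lies highest at 2.63% as defined, and after thinning to 1300 UMIs the libraries lie at 0.453%, 0.425% and 0.558% with overlapping intervals.

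Within the set, Rom 6 HPA was compared with Cont 6 HPA, which addresses whether transcription differed with romidepsin in these nuclei 6 h after amputation. Most transcripts stood at similar levels, with a median log2 ratio of −0.05 over 1529 symbols with at least 50 UMIs in members of both libraries together. More than 2-fold higher in Rom 6 HPA were 17 symbols (1.11%), and more than 2-fold lower were 24 (1.57%). Scaled by median of ratios size factors instead, the split was 23 higher and 18 lower, so the balance of directions changed with the scaling. In the other nuclei over the cut, which hold far more UMIs, 7 and 5 of the same 1529 symbols were past 2-fold. Of the 17 higher symbols 12 had a positive ratio in the other nuclei, and of the 24 lower ones 21 had a negative ratio, where 41.9% and 58.1% of all symbols did.

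*ADAMTS1*, a protease that cleaves matrix proteoglycans, had the highest ratio. It stood at 169 CPM (49 UMIs) in members of Rom 6 HPA, against 42.6 CPM in Cont 6 HPA (28 UMIs) and 26.4 CPM in 0 HPA (10 UMIs), a log2 ratio of Rom 6 HPA over Cont 6 HPA of 1.99 (1.29 to 2.71). In Rom 6 HPA 15 of the 49 UMIs lay in 1 nucleus, and without the nucleus with most UMIs in each library the ratio was 1.75. Without the members that met the rule of another class it was 0.13. The thinned shares of members with *ADAMTS1* (9.09%, 4.19% and 2.59%) were below or near those of muscle-like nuclei (13.0%, 7.17% and 2.01%). Muscle-like nuclei may make *ADAMTS1* and other genes of the injury response themselves, so for such genes their share is no background level, and expression in the set cannot be told apart from free RNA by it.

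*SLC2A1*, the glucose transporter GLUT1, stood at 142 CPM in members of Rom 6 HPA, against 44.2 CPM in Cont 6 HPA and 55.5 CPM in 0 HPA (log2 ratio of Rom 6 HPA over Cont 6 HPA of 1.68, 0.96 to 2.42). It was spread over 33 of 99 members in Rom 6 HPA, with at most 3 UMIs in 1 nucleus, and its log2 ratio in the other nuclei was 1.14. *CDC25B*, a phosphatase that promotes entry into mitosis, stood at 276 CPM in Rom 6 HPA, 111 CPM in Cont 6 HPA and 185 CPM in 0 HPA, a log2 ratio of 1.31 (0.84 to 1.79). Its thinned shares of 31.3%, 11.4% and 22.4% lay above the 17.1%, 8.83% and 9.92% of muscle-like nuclei. *CDC25B* was thus highest in Rom 6 HPA, and the ratio of the other nuclei was 1.07. When *ADAMTS3* was left out of the rule it stood at 0.62.

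*JUND*, a subunit of the AP-1 transcription factor, stood at 128 CPM in members of Rom 6 HPA, against 50.3 CPM in Cont 6 HPA and 42.3 CPM in 0 HPA (1.35, 0.63 to 2.07, and 1.10 in the other nuclei). Its thinned shares in members (9.09%, 4.19% and 3.45%) were below those of muscle-like nuclei (21.8%, 7.59% and 8.18%), and muscle-like nuclei are not known to lack it. *NEFL* had a log2 ratio of 1.42 (0.93 to 1.90), against 0.31 in the other nuclei, and 2 nuclei held 15 and 13 of its 80 UMIs in Rom 6 HPA. Without the 2 nuclei with most *NEFL* UMIs in each library the ratio was 1.21 (0.63 to 1.79). The anterior Hox gene *HOXA3* (1.52 in members and 1.65 in the other nuclei), the kinase gene *MKNK2* (1.28 and 1.31) and *KIAA1551* (1.48 and 0.76) were higher in Rom 6 HPA inside and outside the set. The thinned shares of *MKNK2* in Rom 6 HPA and Cont 6 HPA were 14.1% and 5.39% of members and 25.1% and 12.7% of muscle-like nuclei, and those of *KIAA1551* were 30.3% and 10.2% of members and 27.1% and 10.1% of muscle-like nuclei. *NUGGC*, a GTPase gene, was 1.26 in members and −0.17 in the other nuclei, and *TMEM196.1* was 1.35 and 0.63. The difference between members and other nuclei was not tested.

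The 23 genes of the injury and early response list summed to a log2 ratio of Rom 6 HPA over Cont 6 HPA of 0.42 (0.15 to 0.68) in members and 0.31 (0.27 to 0.34) in the other nuclei, so the list as a whole was higher in Rom 6 HPA. Of its 3 genes with at least 50 UMIs, 1 was past 2-fold higher (*JUND*) and 1 lower (*SOCS3*). Among all symbols counted the shares were 1.11% higher and 1.57% lower. *SOCS3* and the collagenase gene *MMP8*, which is induced after injury, were lower in Rom 6 HPA. *SOCS3*, a feedback inhibitor of cytokine signalling, had 6 UMIs in members of Rom 6 HPA (20.7 CPM), 48 in Cont 6 HPA (73.1 CPM) and 0 in 0 HPA. The log2 ratio of Rom 6 HPA over Cont 6 HPA was −1.82 (−3.33 to −0.59), and in the other nuclei it was −1.12. *MMP8* stood at 82.9 CPM in Rom 6 HPA, 218 CPM in Cont 6 HPA and 37.0 CPM in 0 HPA, a log2 ratio of −1.39 (−2.08 to −0.76), against −0.73 in the other nuclei. For both genes the thinned shares in members (3.03% and 10.8% for *SOCS3*, 12.1% and 22.2% for *MMP8* in Rom 6 HPA and Cont 6 HPA) did not lie above those of muscle-like nuclei beyond counting error (8.25% and 14.1%, 15.0% and 21.7%), which may respond to injury themselves.

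*TNFAIP8*, a regulator of apoptosis and lipid signalling, was lower in members of Rom 6 HPA and differed less elsewhere. It had 8 UMIs in Rom 6 HPA (27.6 CPM), 61 in Cont 6 HPA (92.9 CPM) and 26 in 0 HPA (68.8 CPM), a log2 ratio of −1.75 (−3.02 to −0.68), and the ratio in the other nuclei was −0.08. It was spread over 7, 53 and 23 members with at most 2 UMIs in a nucleus. Its thinned shares were 3.03%, 13.8% and 10.3% of members and 7.32%, 8.41% and 5.90% of muscle-like nuclei. *VGF*, a secreted neuropeptide precursor, stood at 27.6, 88.3 and 66.1 CPM (−1.68, −2.95 to −0.60), and was −0.58 without the members that met another rule. *SNORA44*, a small nucleolar RNA by its name, had the lowest ratio (−2.22, −3.91 to −0.91), with 5, 53 and 17 UMIs. The others named by rule, *C19ORF63*, *HSBP1B*, *WWP1*, *GTF3C2* and *HN1B*, had ratios of −1.26 to −1.34 on 8 to 12 UMIs in Rom 6 HPA, and ratios of −0.29 to 0.06 in the other nuclei.

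Glial genes of the set and *NOTCH1* differed by less than 2-fold between Rom 6 HPA and Cont 6 HPA. *SLC1A3* had a log2 ratio of Rom 6 HPA over Cont 6 HPA of −0.29 (−0.54 to −0.04), *GFAP* of 0.13 (−0.46 to 0.70) and *NOTCH1* of 0.79 (−0.16 to 1.70). The motile cilia list summed to −0.13 (−0.38 to 0.12), and 0 of its 6 genes tested for size were past 2-fold higher and 1 lower, *DNAH9* (−1.03, −1.98 to −0.19, on 14 and 65 UMIs). *EPHA4* was higher in Rom 6 HPA in members (0.87, 0.28 to 1.46) and in the other nuclei (1.11). *SLIT1* was lower in members (−1.11, −2.33 to −0.05), beside −0.13 in the other nuclei. The Hox list summed to −0.06 (−0.22 to 0.10) in members and 0.43 (0.39 to 0.46) in the other nuclei. Cell cycle genes did not differ by 2-fold in either direction (0 of 12, median −0.11), and their sum was 0.01 (−0.09 to 0.11). Over all symbols 1.11% were past 2-fold higher and 1.57% lower, so counts of 0 in lists of these sizes stood near that share.

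Some injury and romidepsin responsive genes had too few UMIs for the count above and are given as values. *HAS2*, the hyaluronan synthase, had 1 UMI in members of Rom 6 HPA, 20 in Cont 6 HPA and 2 in 0 HPA, a log2 ratio of Rom 6 HPA over Cont 6 HPA of −3.14 (−8.51 to −0.50), beside −2.58 in the other nuclei. *SMAD7*, an inhibitor of TGF-β signalling, had 14 UMIs in Rom 6 HPA, 5 in Cont 6 HPA and 1 in 0 HPA (2.67, 1.11 to 4.49, and 0.98 in the other nuclei). *CYP26A1*, which degrades retinoic acid, had 1, 16 and 11 UMIs (−2.82, −8.21 to −0.13, and −1.08). *PPP1R15A*, a gene of the stress response, had 12, 5 and 1 UMIs (2.44, 0.84 to 4.30, and 1.22), and *IER5*, an immediate early gene, had 15, 8 and 13 UMIs (2.09, 0.76 to 3.53, and 1.47). *FOSB* and *GADD45B*, also of the early response, had 15 and 10 UMIs in Rom 6 HPA and 15 and 8 in Cont 6 HPA (1.18, 0.05 to 2.32, and 0.46 in the other nuclei for *FOSB*, 1.50, 0.01 to 3.05, and 0.79 for *GADD45B*). These 7 were chosen after their values were seen, as the genes under 50 UMIs of the injury list and of the list of romidepsin responsive genes from a separate Nanostring assay whose interval excluded 0. Those lists hold 23 and 27 matched genes, of which 3 and 4 reached 50 UMIs in both libraries together. The 7 are thus a selected part of the remaining genes. The 27 matched genes of the Nanostring list summed to 0.01 (−0.16 to 0.19) in members and 0.06 (0.03 to 0.08) in the other nuclei.

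**Figure D4:**
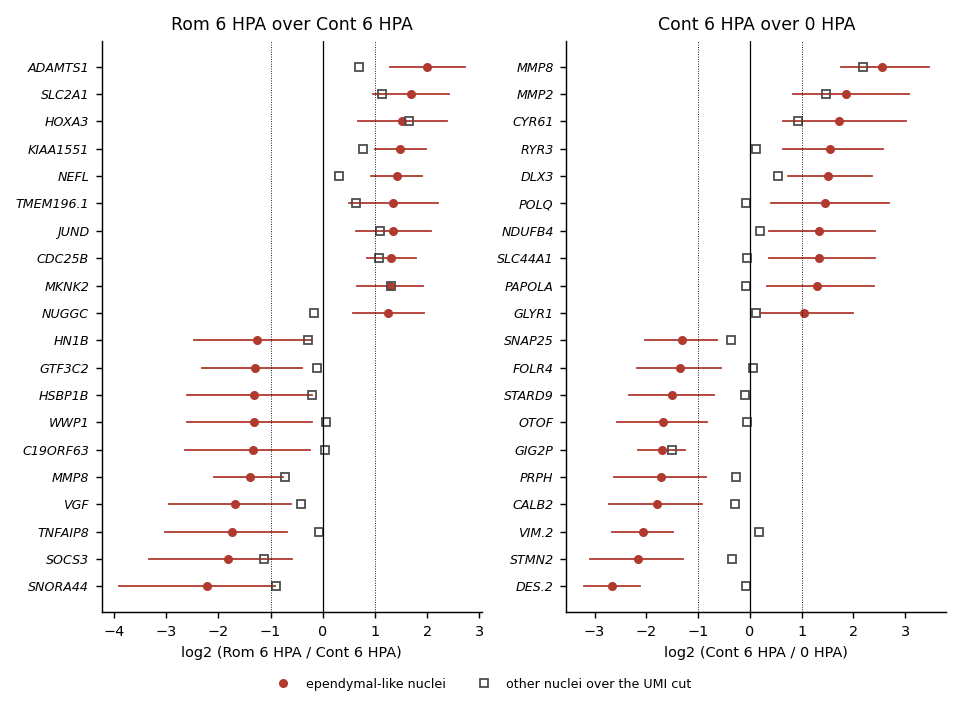
Log2 CPM ratio (x axis) of the genes named by rule (y axis) for Rom 6 HPA over Cont 6 HPA (left) and Cont 6 HPA over 0 HPA (right), with filled points and 95% counting intervals for ependymal-like nuclei and open squares for the other nuclei over the cut. *TNFAIP8* lies at −1.75 in the set and −0.08 outside it, whereas *MMP8* lies at 2.56 and 2.18 in the comparison with 0 HPA.

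Cont 6 HPA was also compared with 0 HPA within the set, which addresses what changed in these nuclei in the hours after amputation. Of 1667 symbols with at least 50 UMIs in members of both libraries, 11 were more than 2-fold higher in Cont 6 HPA (0.66%) and 24 more than 2-fold lower (1.44%). The median log2 ratio was −0.03 in members and −0.12 in the other nuclei, where 6 of the same symbols were past 2-fold higher and 2 lower. The balance of directions in members depended on a few nuclei and on the rule, since it was 17 higher and 6 lower without members that met another rule, 20 and 16 without *ADAMTS3* in the rule, 22 and 19 without the nucleus with most UMIs of each symbol, 22 and 17 with equal weight per nucleus, and 8 and 6 with 3 symbols.

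Among the symbols counted, *MMP8*, *MMP2* and *CYR61* had the highest ratios. *MMP8* stood at 218 CPM in members of Cont 6 HPA and 37.0 CPM in 0 HPA (log2 ratio of 2.56, 1.76 to 3.46), and *MMP2*, a gelatinase, at 86.8 CPM in Cont 6 HPA and 23.8 CPM in 0 HPA (1.87, 0.84 to 3.07). The ratios in the other nuclei were close, at 2.18 and 1.47. *CYR61*, a matricellular protein gene, stood at 70.0 CPM in Cont 6 HPA and 21.2 CPM in 0 HPA (1.73, 0.63 to 3.02, and 0.93 in the other nuclei). *SOCS3* had 48 UMIs in Cont 6 HPA and 0 in 0 HPA, so that it was at least 3.20 higher on the log2 scale, taking 3 UMIs in the 0 HPA set as the floor, and in the other nuclei its ratio was 4.31. *JUNB*, an AP-1 subunit gene, had 34 UMIs in Cont 6 HPA and 2 in 0 HPA (3.29, 1.33 to 6.39, and 1.98 in the other nuclei). The 23 genes of the injury and early response list summed to a log2 ratio of 1.09 (0.75 to 1.46) in members, against 1.18 (1.13 to 1.23) in the other nuclei, so the summed response of the set lay within its counting error of the other nuclei. The thinned shares of *MMP2* (7.19% and 2.59%) and *JUNB* (6.59% and 1.72%) in members of Cont 6 HPA and 0 HPA stood beside 8.28% and 2.82% (*MMP2*) and 5.24% and 0.804% (*JUNB*) of muscle-like nuclei, which may respond to injury themselves.

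**Figure D5:**
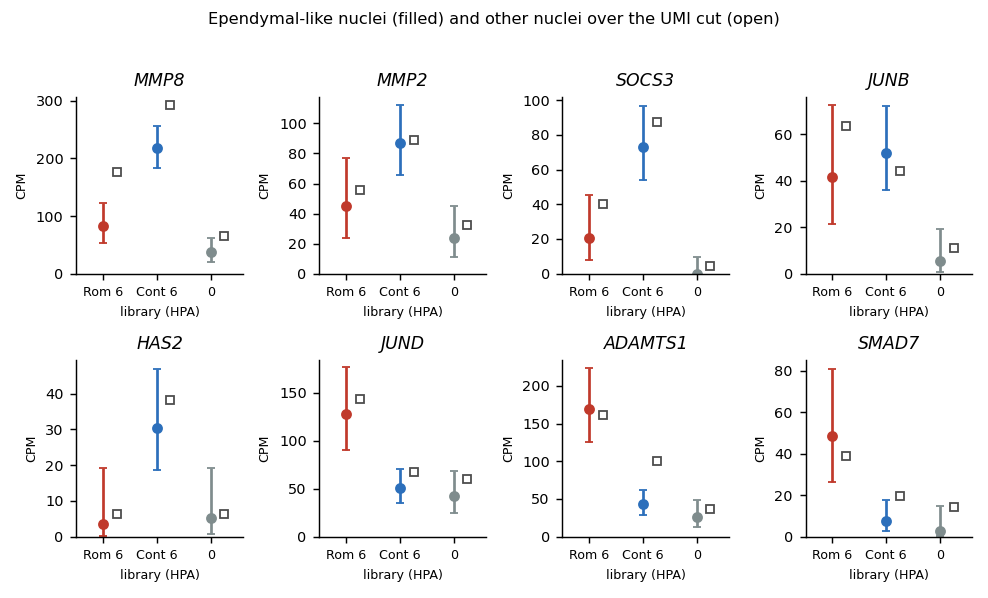
CPM (y axes, linear from 0) of 8 injury and romidepsin responsive genes in Rom 6 HPA, Cont 6 HPA and 0 HPA (x axes), with filled points and 95% Poisson intervals for ependymal-like nuclei and open squares for the other nuclei over the cut. *MMP8*, *SOCS3* and *HAS2* are highest in Cont 6 HPA (218, 73.1 and 30.5 CPM in the set), while *JUND*, *ADAMTS1* and *SMAD7* are highest in Rom 6 HPA (128, 169 and 48.4 CPM).

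Other symbols higher in Cont 6 HPA differed less in the other nuclei. *RYR3*, a calcium release channel gene, stood at 92.9 CPM in members of Cont 6 HPA and 31.7 CPM in 0 HPA (1.55, 0.64 to 2.58, and 0.11 in the other nuclei). It was found in 10.8% and 5.17% of thinned members and in over 41% of thinned muscle-like nuclei, where the gene is known to be used, so those nuclei give no background level for it. *POLQ*, a DNA repair polymerase gene, stood at 65.5 CPM in Cont 6 HPA and 23.8 CPM in 0 HPA (1.46, 0.40 to 2.68, and −0.07 in the other nuclei). *DLX3*, a homeobox gene of surface ectoderm, stood at 128 CPM in Cont 6 HPA and 45.0 CPM in 0 HPA (1.51), with thinned shares of 14.4% and 6.03%, close to the 12.4% and 8.45% of muscle-like nuclei. *NDUFB4*, *SLC44A1*, *PAPOLA* and *GLYR1* had ratios of 1.05 to 1.33 on 47 to 54 UMIs in Cont 6 HPA and 11 to 15 in 0 HPA.

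The symbols lower in Cont 6 HPA included neuronal genes. *STMN2*, a growth cone protein gene of neurons, stood at 24.4 CPM in members of Cont 6 HPA and 108 CPM in 0 HPA (−2.15, −3.09 to −1.29, and −0.36 in the other nuclei). *SNAP25*, a synaptic fusion protein gene, stood at 48.7 CPM in Cont 6 HPA and 122 CPM in 0 HPA (−1.32, −2.02 to −0.64), and *PRPH*, the peripheral neuron filament peripherin, at 27.4 CPM in Cont 6 HPA and 89.9 CPM in 0 HPA (−1.71, −2.63 to −0.85). *CALB2*, a calcium-binding protein gene of neurons, gave −1.80 (−2.73 to −0.92). All 3 neurogenesis genes counted (*STMN2*, *SNAP25* and *SCN8A*) were past 2-fold lower in Cont 6 HPA, where 1.44% of all symbols were. The whole list summed to −1.50 (−1.87 to −1.13) in members and −0.36 (−0.46 to −0.26) in the other nuclei. The list stood at 280 CPM in Rom 6 HPA, 151 CPM in Cont 6 HPA and 426 CPM in 0 HPA.

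A few nuclei carried part of this difference. In 0 HPA 1 nucleus of 11513 UMIs held 13 of 41 *STMN2*, 13 of 46 *SNAP25*, 16 of 33 *SCN8A*, 15 of 34 *PRPH* and 19 of 88 *NEFL* UMIs. It also held 8 *SLC1A3* and 9 *GFAP* UMIs. Without the nucleus with most UMIs in each library, *STMN2* was −1.93 (−3.00 to −0.93) and *SNAP25* −1.06 (−1.84 to −0.29). *SCN8A* was then −0.52 (−1.52 to 0.49), an interval that held 0. The neuron markers were also lower in Cont 6 HPA, at 59.4 CPM in members of Cont 6 HPA and 172 CPM in 0 HPA, and 1 and 6 members met the neuron-like rule. Without the members that met another rule, *STMN2* was −0.81, *CALB2* −0.04 and *SNAP25* 0.23. The share of neuronal RNA or of mixed nuclei in these ratios was not tested.

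Other lower symbols came from even fewer nuclei. *DES.2*, a copy of the muscle filament gene desmin by its name, had 38 UMIs in members of Cont 6 HPA and 138 in 0 HPA (−2.66, −3.22 to −2.13), but 2 nuclei of 0 HPA held 100 and 27 of these, and without the 2 nuclei with most in each library the ratio was 0.81. *VIM.2* had 37 UMIs in Cont 6 HPA and 89 in 0 HPA (−2.06, −2.66 to −1.49), 73 of them in 1 of the same nuclei, and the ratio was 0.32 without the nucleus with most in each library. Those 2 nuclei also held 159 and 96 of the 442 *KRT18* UMIs of 0 HPA. Simple epithelial keratin *KRT18* had a log2 ratio of −1.06 (−1.27 to −0.86) with all members and 0.03 without the 2 nuclei with most in each library. *GIG2P* behaved otherwise, as its 124 UMIs in 0 HPA were spread over 58 members and its ratio of −1.71 (−2.16 to −1.26) stood beside −1.51 in the other nuclei. *OTOF* (−1.68), *STARD9* (−1.51) and *FOLR4* (−1.36) were lower in members and near 0 elsewhere (−0.07, −0.10 and 0.06).

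With all members, the glial genes *SLC1A3* and *GFAP* were lower in Cont 6 HPA than in 0 HPA by less than 2-fold. *SLC1A3* had a log2 ratio of −0.24 (−0.45 to −0.04) and *GFAP* of −0.76 (−1.23 to −0.29), beside −0.34 for both in the other nuclei. Without the nucleus with most UMIs in each library, *SLC1A3* was −0.18 (−0.39 to 0.03), an interval that held 0. *GFAP* was then −0.70 (−1.18 to −0.21). The thinned shares of *SLC1A3* were 58.1% in Cont 6 HPA and 59.5% in 0 HPA. The radial glia and ependymal list summed to −0.62 (−0.73 to −0.52) in members and 0.07 (0.05 to 0.10) in the other nuclei. That sum leans on 2 nuclei of 0 HPA. Of the 1349 UMIs of the list in 0 HPA, *KRT18* gave 442 and *KRT8* 250, and the 2 nuclei held 255 and 118 of these. The list sum without these nuclei was not computed, so a fall of the list as a whole is not shown. With all members, 4 of its 7 genes with at least 50 UMIs had intervals below 0. The share of all symbols with such intervals was not computed. Of the 7 genes, 1 was past 2-fold lower, where 1.44% of all symbols were. The keratin genes *KRT18* (−1.06) and *KRT8* (−0.87) had the lowest ratios of these 7, and without the 2 nuclei with most UMIs in each library they were 0.03 and −0.05. The cilia list summed to 0.07 (−0.15 to 0.30), the Notch list to −0.05 (−0.37 to 0.28) and the matrix and adhesion list to 0.06 (−0.14 to 0.27). *CENPF* was higher in Cont 6 HPA (0.51, 0.30 to 0.72, and −0.18 in the other nuclei), whereas *MKI67* was slightly lower (−0.24, −0.46 to −0.02). *HOXD11* was higher (0.32, 0.08 to 0.56, and −0.28 in the other nuclei). No gene of the cell cycle, cilia, Hox or Notch lists was past 2-fold among the 12, 6, 7 and 2 counted. Over all symbols 0.66% were past 2-fold higher and 1.44% lower, so counts of 0 in lists of these sizes stood near that share.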

How the data were processed

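Single nuclei were profiled with 10x Genomics v3 chemistry in 3 libraries of axolotl embryo tail tips. The authors mapped reads to an axolotl transcript assembly and deposited whole-number UMI counts per nucleus and transcript feature, without normalization (91648 features). Cell Ranger is version 3.0.2 per the file headers and 6.0.0 in the submitters' processing notes. The labels give the later time as day 6 and the paper as 6 h, which is used here. The nuclei numbers of the 6 HPA libraries are those of the labelled matrices, which are the reverse of the paper's. Doublets were not called or removed, and neither the strandedness of counting nor the handling of near-identical copies is given in the sources used here, so symbols with a numbered suffix are uncertain.

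Features were summed per symbol (15749 named symbols), and summed UMIs of the selected nuclei were scaled to CPM (Python 3.11.15, numpy 2.4.6, pandas 2.3.3, scipy 1.17.1, figures with matplotlib 3.10.9). Sums had exact Poisson, ratios exact conditional and shares exact (Clopper-Pearson) binomial 95% intervals. Counts of 0 were set to a floor of 3 UMIs over the set. With 1 library per condition no test was made, and symbols past 2-fold among those with at least 50 UMIs were counted as a size. Code was tested on simulated data. Shares were also computed after thinning nuclei to 1300 UMIs without replacement. Library totals were 58827729 UMIs in Rom 6 HPA, 105765943 in Cont 6 HPA and 42537606 in 0 HPA. The sparse counts per nucleus set the precision.

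Named genes were the 10 highest and 10 lowest ratios past 2-fold with an interval excluding 0 in each contrast, the 20 leading symbols of the set, and members of the 18 lists. The 4 selecting genes, repeats and features without a gene name were left out. The members and lists were chosen with earlier results of these data known. Muscle-like nuclei were taken as the background class after seeing the data, because under 40 erythrocyte-like nuclei were found in each library (10, 25 and 4), and they give a background level only for genes that muscle is not thought to use. Alternatives changed the marker rule, the UMI cut, the markers, depth, scaling, weighting, features per symbol and count minimum. A few single genes are left out here.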

Additional observations from a re-analysis of the deposited data

Results flagged for a closer look

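*NUGGC* differed in direction between the set and the other nuclei for Rom 6 HPA over Cont 6 HPA. The log2 ratio was 1.26 (0.58 to 1.94) in ependymal-like nuclei, on 40 UMIs in Rom 6 HPA and 38 in Cont 6 HPA, and −0.17 (−0.23 to −0.10) in the other nuclei over the cut. In the set 20 members of Rom 6 HPA and 19 of Cont 6 HPA held these UMIs, at most 8 and 7 in 1 nucleus. After thinning, 8.08%, 5.39% and 5.17% of members in Rom 6 HPA, Cont 6 HPA and 0 HPA held a *NUGGC* UMI. The shares of muscle-like nuclei were 4.76%, 5.24% and 8.85%. In no library did the set lie above them beyond counting error, and the interval in Rom 6 HPA was 3.55 to 15.3%.

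*VIM.2* differed in direction for Cont 6 HPA over 0 HPA. The log2 ratio was −2.06 (−2.66 to −1.49) in ependymal-like nuclei and 0.18 (0.09 to 0.26) in the other nuclei. In 0 HPA 1 nucleus held 73 of 89 UMIs, and the ratio was 0.32 without the nucleus with most UMIs in each library. With 1 library per condition, neither difference between the set and the other nuclei was tested.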

How the results depend on the processing

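No paired analysis was possible because each condition had 1 library. The shares of ependymal-like nuclei in Rom 6 HPA, Cont 6 HPA and 0 HPA were 0.706, 1.62 and 0.930% with at least 4 selecting UMIs, 0.559, 1.10 and 0.658% with 3 symbols, and 0.999, 1.57 and 1.16% without members that met another rule. They were 0.839, 2.12 and 1.20% without *RFX4*, 0.799, 1.53 and 1.10% without *IGDCC3*, 0.946, 1.59 and 0.930% without *GPR144*, and 0.479, 1.27 and 0.515% without *ADAMTS3*. Thinned to 1300 UMIs they were 0.453, 0.425 and 0.558%, and with nuclei under the cut included Cont 6 HPA was 0.0599%.

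Symbols past 2-fold higher and lower in Rom 6 HPA over Cont 6 HPA, then in Cont 6 HPA over 0 HPA, numbered 129, 184, 129 and 166 with a minimum of 20 UMIs and 4, 1, 3 and 6 with 100. They were 9, 9, 17 and 6 without members that met another rule. With 3 symbols they were 10, 11, 8 and 6, without *IGDCC3* 11, 14, 12 and 12, without *GPR144* 10, 13, 8 and 14, and without *ADAMTS3* 7, 9, 20 and 16. With at least 4 UMIs 7 were higher in Rom 6 HPA, with a cut of 2000 40 were lower in Rom 6 HPA and 18 higher in Cont 6 HPA over 0 HPA, and with equal weight per nucleus 22 were higher in Cont 6 HPA over 0 HPA. Without the nucleus with most UMIs of each symbol 46 were lower in Rom 6 HPA and 22 higher in Cont 6 HPA over 0 HPA. Fewer members leave fewer symbols with enough UMIs, and otherwise the cause was not tested.

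Of 480 values of the 40 named ratios under 12 alternatives, 446 moved by less than their counting interval, 26 moved by more, and 8 changed sign. *DES.2* became 0.56 with 3 symbols, 2.69 without *GPR144* and 0.38 without members that met another rule, *VIM.2* became 0.82, 0.81 and 1.55 under these and 0.32 without its top nucleus, and *SNAP25* became 0.23 without members that met another rule. The alternative without the top nucleus and the thinning over the cut were chosen after seeing the data.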

Other observations

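Genes of the dorsal to ventral domains of the cord were sparse in the set. *SHH*, the floor plate morphogen, had 4 UMIs in members of Rom 6 HPA, 18 in Cont 6 HPA and 5 in 0 HPA. *OLIG2*, of ventral progenitors, had 3, 13 and 7 UMIs, and *RSPO3*, of the roof, had 4, 14 and 3. *OLIG2* was above the other nuclei in Cont 6 HPA (log2 ratio of 1.30, 0.36 to 2.11), as was *RSPO3* (1.35, 0.45 to 2.13), and their intervals held 0 in both other libraries.

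*PKD2L1*, a channel gene of neurons that contact the cerebrospinal fluid, was chosen after its values were seen. It had 2 UMIs in members of Rom 6 HPA, 36 in Cont 6 HPA and 47 in 0 HPA, and 0, 33 and 44 of these lay in 0, 2 and 3 nuclei with at least 3 UMIs each. Those nuclei also held 0 of 8, 9 of 58 and 10 of 25 *VGF* UMIs. Outside the set 15, 24 and 29 nuclei over the cut had 3 or more *PKD2L1* UMIs.

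Histone deacetylase genes, whose class I products romidepsin inhibits, stood at similar summed levels in members and other nuclei. The 12 genes summed to 214 CPM in members of Rom 6 HPA, 219 CPM in Cont 6 HPA and 241 CPM in 0 HPA, against 201, 201 and 230 CPM in the other nuclei. *HDAC2* had log2 ratios of 0.31, 0.97 and 0.54 over the other nuclei, and its interval excluded 0 in Cont 6 HPA only. *PDGFRA*, on the gliogenesis list, is also among the fibroblast markers used above, and fibroblast-like nuclei are part of the other nuclei. *PDGFRA* was lower in members of Cont 6 HPA (−1.32, −2.39 to −0.44) and 0 HPA (−1.86, −3.74 to −0.50). Its ratio in Rom 6 HPA was −0.72 with an interval that held 0.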
